A study of Mus musculus with 11 samples.

Results

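The 4 livers taken after 3 days of YAP induction were compared with the 4 control livers, gene by gene, to describe the earliest transcriptional response that was measured and how far the 4 induced livers differed in its strength. These 8 livers were chosen by their labels out of 11 in the series, the other 3 having been induced for 7 days. The induced mice carried tetYAP, a doxycycline-driven transgene for the constitutively active YAP S127A, together with the ROSA26-rtTA-IRES-EGFP allele, and received doxycycline food for 3 days. The controls carried the ROSA26-rtTA-IRES-EGFP allele without tetYAP (genotype WT) and, by their labels, received doxycycline for 7 days. All mice thus carried the rtTA allele and ate doxycycline, and the length of doxycycline feeding cannot be told apart from the transgene in this comparison. The methods of the study place a lox-stop-lox cassette before rtTA and remove it with Cre under the albumin promoter, which is active in hepatocytes. The RNA came from whole liver, so that fewer cells of a type and less RNA per cell cannot be told apart. Age and sex are not in the labels used here. The labels number the livers of a group as replicates without saying how the animals were housed or collected, and the p-values measure only the spread between these samples.

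YAP is the transcriptional coactivator at the end of the Hippo pathway. The kinases MST and LATS phosphorylate YAP and its paralog TAZ and keep them out of the nucleus, and the S127A change removes one of the LATS sites. Nuclear YAP has no DNA-binding domain of its own and reaches its target genes through the TEAD factors, which recognise the letters GGAATG or their complement. In the liver the pathway restrains organ size, and sustained YAP activity is known to drive hepatocytes into the cell cycle and to erode their adult identity. Several targets of YAP are themselves inhibitors of YAP, among them LATS2 and AMOTL2, and form negative feedback.

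Values are eRPKM, the reads on a gene's exons per kilobase, relative to library depth. Each value above 0 came back as a whole number of reads, and these gave 1251396 to 5495697 reads on genes in the controls and 2660233 to 3681416 in the 3-day livers, with control liver 4 the shallowest. The most densely read gene of a library had 1281 to 1501 reads per kilobase whatever the depth of the library, so that the eRPKM of very abundant liver genes was lower in deeper libraries. Of the 14244 genes tested, 1597 had at least 300 reads per kilobase in 1 of the 8 livers or more and are called densely covered here. The limit of 300 was set by hand, and how far the ceiling lowers the values of genes above it was not tested. All 14 hepatocyte markers were present, with Alb, the albumin gene, at 268 to 918 eRPKM in the controls. Both groups held livers with high Xist and livers with high Ddx3y, 2 of each. Xist was high in controls 2 and 3 and induced livers 3 and 4, and Ddx3y in controls 1 and 4 and induced livers 1 and 2. Induced livers 1 and 4 have the suffix MF in the column names, which the sources used here do not explain. Spearman correlations across genes were 0.922 to 0.964 between 3-day livers and 0.945 to 0.976 between controls.

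Few genes passed the test at 3 days. Tested were 14244 genes that reached 0.5 eRPKM in 3 or more of the 11 livers. Of these, 6 rose (0.0421%) and 0 fell (0%) at an adjusted p under 0.01 and a log2 fold change over 0.5 in size, in limma with Benjamini-Hochberg adjustment on log2(eRPKM + 0.5). An adjusted p under 0.05 was reached by 40 genes that were higher (0.281%) and by 1 that was lower (0.00702%), and an unadjusted p under 0.05 by 1119 and 599. Without a model, 482 genes (3.38%) had all 4 induced livers above all 4 controls and 321 (2.25%) had all 4 below. Of these, 125 were higher and 47 lower by more than 1 on the log2 scale. The genes above the controls had a median control level of 11.8 eRPKM and those below of 2.10 eRPKM, beside 8.26 eRPKM over all tested genes, and over all tested genes the log2 fold change had a median of 0.018. The calls rested on the spread shared with the 7-day livers. With the 8 livers alone limma called 0 genes in either direction, and the count of higher genes was 53 without induced liver 1, 0 without induced liver 2, 1 without liver 3, 0 without liver 4, 3 without control 1, 0 without control 2 or control 3, and 3 without control 4.

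The best known YAP targets separated from the controls, to different degrees in the 4 livers. Cyr61 (chr3:145309935-145312949 in mm9, minus strand), which encodes a secreted matrix protein of the CCN family, was at 9.58, 14.3, 5.76 and 8.03 eRPKM in controls 1 to 4 and at 26.8, 48.3, 53.4 and 27.5 in induced livers 1 to 4. Its log2 fold change was 1.99 ± 0.27 (SE) with an adjusted p of 0.0117, just outside the threshold. Livers 2 and 3 were the high ones, and even liver 1 was above every control. Ctgf, the other widely used CCN target, stood at 14.2, 8.59, 5.20 and 6.78 eRPKM in the controls and at 15.3, 31.3, 34.2 and 15.5 after 3 days, a log2 fold change of 1.41 ± 0.31 with an adjusted p of 0.083. Here livers 1 and 4 were close to the highest control, while livers 2 and 3 lay far above it.

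The feedback inhibitors Amotl2 and Lats2 followed the same order of livers. Amotl2, whose product binds YAP and holds it at junctions, was at 12, 14.7, 11.3 and 9.66 eRPKM in the controls and at 14.9, 46.0, 58.7 and 20 in the induced livers (log2 fold change 1.31, adjusted p 0.128). Lats2, the kinase, was at 11, 10.2, 8.91 and 6.88 against 14.0, 17.4, 20.5 and 15.3 eRPKM (0.83, adjusted p 0.083). No induced liver overlapped the controls for either gene, although Amotl2 in liver 1 exceeded the highest control by little. Ajuba and Crim1 are not among these inhibitors. Ajuba, a LIM scaffold that restrains LATS kinases, separated more widely than Amotl2, Lats2 and Crim1. Its level was 3.84, 7.15, 4.60 and 5.98 eRPKM in the controls and 15.5, 41.0, 44.2 and 18.6 after induction, with a log2 fold change of 2.25 ± 0.31 and an adjusted p of 0.0117. Crim1, a transmembrane binder of BMP ligands, was at 11.3, 8.82, 8.07 and 7.63 against 15.6, 27.6, 27.5 and 15.2 eRPKM (1.17 ± 0.21, adjusted p 0.043). For both genes livers 2 and 3 were again above livers 1 and 4, which in turn were above all controls. Exons of Lats2 overlap Xpo4, those of Crim1 overlap Fez2 and those of Ctgf overlap Gm15270 in the annotation, and the reads were counted without strand.

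**Figure D1:**
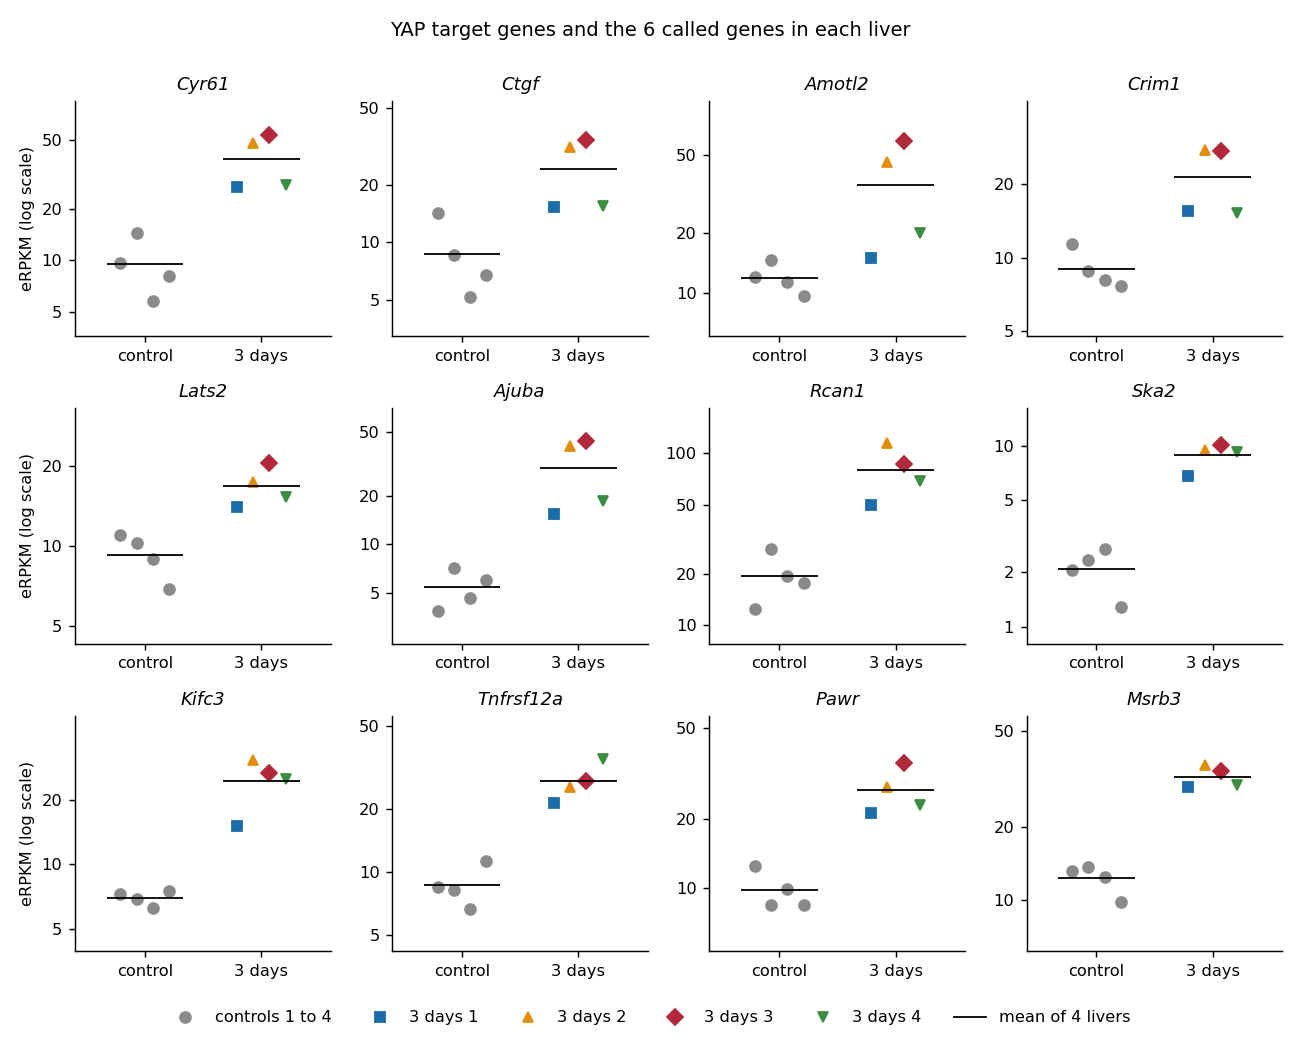
eRPKM on a log scale in each of the 4 control livers (grey) and each of the 4 livers after 3 days of YAP induction (one symbol per liver), with the mean of 4 livers as a line, for 6 YAP pathway genes and for the 6 genes that passed the test. All 4 induced livers lie above all 4 controls in each panel, and liver 3 is the highest of the 4 for Cyr61, Ctgf, Amotl2, Lats2 and Ajuba.

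Most of the YAP signature had not separated at 3 days. Of 20 tested members of the YAP/TAZ target signature, 5 lay above all controls (25%, beside 3.38% of all tested genes) and 1 below, 0 passed the test, and the median log2 fold change was 0.05. The 5 were Cyr61, Ctgf, Amotl2, Lats2 and Crim1. Among 33 further targets, Ajuba and Tnfrsf12a lay above all controls (6.06%) and the median was 0.16. Ankrd1, a nuclear ankyrin protein that is a standard YAP target in other tissues, was the member below the controls, at 0.846, 0.799, 0.457 and 0.879 eRPKM in the controls and 0, 0.152, 0.149 and 0.299 in the induced livers (log2 fold change -0.94, adjusted p 0.110). These values rest on 2 to 8 reads in the controls and 0 to 2 in the induced livers. After 7 days the same gene stood at 15.4 to 20.1 eRPKM. Axl, a receptor tyrosine kinase of the signature, overlapped the controls, at 9.44 to 17.1 against 12.3 to 16.8 eRPKM (log2 fold change 0.15).

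The genes of the factors that carry the response did not separate at 3 days in these RNA values. Yap1 was at 21.1, 19.4, 18.6 and 13.9 eRPKM in the controls and 15.6, 17.2, 19.3 and 15.3 in the induced livers, a log2 fold change of -0.10, and the groups overlapped. Whether reads of the transgene fall on the Yap1 row cannot be told from the table, so that this row does not check the labels. For this mouse model the paper itself reports YAP at its maximum by 3 days. It also reports that Tead1 and Tead4 mRNA, by RT-qPCR, increased step by step up to 7 days. Tead1, the TEAD gene with the highest level, was at 5.25, 7.66, 8.46 and 4.28 eRPKM against 6.07, 11.9, 20.1 and 9.60 (0.77, adjusted p 0.341), and only liver 3 stood well apart from the controls. Wwtr1, which encodes TAZ, had a log2 fold change of 0.29, Tead2 of -0.33, Tead3 of -0.27 and Tead4, with 0 to 8 reads in the controls, of 0.52. Of the 8 tested TEAD factors and cofactors, 0 lay outside the controls, beside 3.38% above and 2.25% below over all tested genes. Of 30 tested Hippo kinases and upstream regulators, 5 lay above all controls (16.7%) and 0 below, with a median log2 fold change of 0.05. Beside Lats2, Amotl2 and Ajuba these were Wwc2, a KIBRA relative (4.99, 6.45, 6.14 and 3.94 eRPKM against 7.65, 9.91, 12.6 and 7.21), and Rassf1, an adaptor of MST kinases (log2 fold change 0.65).

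Exact two-sided permutation tests over the 70 splits of the 8 livers were run on the difference of group means of 12 genes. The smallest p that 4 against 4 livers can give is 0.0286, and it was reached by Cyr61, Ctgf, Amotl2, Lats2 and, downwards, Ankrd1. A gene whose groups do not overlap always has this p, and adjusted over the 12 genes by Benjamini-Hochberg it was 0.0686, so that none of the 12 passed 0.05 by this test. The exact p was 0.543 for Yap1 and Axl, 0.229 for Wwtr1, 0.114 for Tead1 and Tead2, 0.486 for Tead3 and 0.286 for Tead4.

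The promoters of Cyr61 and of called genes are shown because YAP reaches DNA through TEAD factors. Each line gives the 250 bases before the RefSeq start in GRCm38.p6, written along the gene's strand with GGAATG, or its complement CATTCC, in capitals. Rcan1 has 2 starts in the table and both windows are given.
Cyr61 (chr3:145649986-145650235, minus): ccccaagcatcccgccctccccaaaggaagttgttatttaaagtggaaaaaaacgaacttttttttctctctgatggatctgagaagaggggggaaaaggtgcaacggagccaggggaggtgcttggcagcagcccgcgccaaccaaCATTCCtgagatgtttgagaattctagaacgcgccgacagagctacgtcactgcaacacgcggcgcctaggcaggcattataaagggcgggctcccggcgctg
Rcan1, upstream start (chr16:92466170-92466419, minus): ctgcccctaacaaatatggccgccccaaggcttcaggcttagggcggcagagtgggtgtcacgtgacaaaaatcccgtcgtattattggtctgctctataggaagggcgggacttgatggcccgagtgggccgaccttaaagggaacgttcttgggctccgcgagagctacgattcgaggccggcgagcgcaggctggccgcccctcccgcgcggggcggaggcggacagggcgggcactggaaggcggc
Rcan1, downstream start (chr16:92400079-92400328, minus): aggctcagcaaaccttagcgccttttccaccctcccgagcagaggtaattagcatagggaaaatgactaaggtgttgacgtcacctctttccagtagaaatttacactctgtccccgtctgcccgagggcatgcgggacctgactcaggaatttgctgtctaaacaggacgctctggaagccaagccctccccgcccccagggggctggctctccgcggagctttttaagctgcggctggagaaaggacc
Ska2 (chr11:87109011-87109260, plus): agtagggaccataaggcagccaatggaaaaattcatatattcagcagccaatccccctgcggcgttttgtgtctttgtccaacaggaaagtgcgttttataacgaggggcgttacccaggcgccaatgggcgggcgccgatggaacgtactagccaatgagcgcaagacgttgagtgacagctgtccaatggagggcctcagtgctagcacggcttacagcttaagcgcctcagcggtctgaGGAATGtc
Tnfrsf12a (chr17:23677450-23677699, minus): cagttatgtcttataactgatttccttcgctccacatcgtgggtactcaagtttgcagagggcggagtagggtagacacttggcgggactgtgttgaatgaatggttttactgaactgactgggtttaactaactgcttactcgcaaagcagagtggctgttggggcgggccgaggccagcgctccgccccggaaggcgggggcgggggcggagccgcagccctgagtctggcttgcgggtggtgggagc
The Cyr61 window holds the letters once, on the reverse strand and 103 bases before the start, and the Ska2 window once, 8 bases before the start. Neither Rcan1 window nor the Tnfrsf12a window holds them, and neither do those of Pawr and Msrb3, which says only that these letters are not in these 250 bases. The tally for the called genes with a window was thus 1 of 5. Of all genes with a window, 14.4% hold GGAATG on either strand (3880 of 27025), of the tested genes with a window 13.1%, and of the genes above all controls 14.2% (55 of 388). The YAP/TAZ signature had windows for 14 of its 20 tested members, and 6 of them (42.9%) hold the letters, among them 3 of the 4 members above all controls that had a window.

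The 6 genes that rose are taken in turn. Rcan1 (chr16:92392198-92466391, minus), an inhibitor of the phosphatase calcineurin, was at 12.5, 27.9, 19.3 and 17.6 eRPKM in the controls and 50.3, 115, 86.4 and 69.0 in the induced livers, a log2 fold change of 2.01 ± 0.26 with an adjusted p of 0.0088. Ska2, a subunit of the complex that holds kinetochores on spindle microtubules, was at 2.07, 2.34, 2.68 and 1.29 against 6.77, 9.42, 10.1 and 9.28 eRPKM (1.87 ± 0.23, adjusted p 0.0080). For Ska2 these values stand on 5 to 40 reads in the controls and 56 to 115 in the induced livers. Kifc3 (chr8:97623732-97666440, minus), a minus-end directed kinesin, was at 7.24, 6.84, 6.27 and 7.52 against 15, 30.7, 26.6 and 25 eRPKM (1.69 ± 0.20, adjusted p 0.0055). In all 3 genes induced liver 1 was the lowest of the induced livers and still clear of the highest control.

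Tnfrsf12a (chr17:23812414-23814416, minus), the receptor Fn14 for the cytokine TWEAK and a known YAP target, was at 8.51, 8.22, 6.68 and 11.3 eRPKM in the controls and 21.5, 25.5, 27.3 and 35.0 after 3 days (1.6 ± 0.18, adjusted p 0.0055). Unlike the CCN genes it was highest in liver 4. Pawr (chr10:107769245-107851447, plus), a pro-apoptotic protein, was at 12.5, 8.49, 9.92 and 8.49 against 21.3, 27.6, 35.3 and 23.1 eRPKM (1.39 ± 0.18, adjusted p 0.0088). Msrb3 (chr10:120218152-120336157, minus), a methionine sulfoxide reductase that repairs oxidised proteins, was at 13.2, 13.7, 12.5 and 9.83 against 29.4, 36.1, 34.1 and 29.8 eRPKM (1.36 ± 0.14, adjusted p 0.0039). Msrb3 had the most even response, its 4 induced livers being closer to each other than for any other called gene. The log2 fold changes at 7 days, against the same controls, were 2.21 for Rcan1, 2.09 for Ska2, 3.11 for Kifc3, 3.82 for Tnfrsf12a, 2.26 for Pawr and 1.74 for Msrb3. Exons of some called genes overlap those of other genes, as Tnfrsf12a does with Hcfc1r1.

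The 34 further genes that were higher at an adjusted p under 0.05, named here after their values were seen, all lay above all controls. Trip6, a zyxin-family LIM protein, was at 7.93 to 14.9 eRPKM in the controls and 19.7 to 33.4 in the induced livers, Sorbs2, an adaptor of actin structures, at 17.5 to 27.1 and 35.1 to 46.4, and Tuba1b, an alpha-tubulin, at 17.5 to 21.4 and 32.4 to 43.2. Tspan4, a tetraspanin, was at 27.2 to 38.1 and 48.7 to 74.6 eRPKM, Slc45a3 at 7.93 to 12.9 and 18.4 to 41.8, and Tmem37, a channel subunit, at 59.1 to 66.4 and 97.5 to 138. Pqlc1 was at 24.98 to 27.9 eRPKM in the controls, 41.6 to 55.7 after 3 days and only 27.8 to 32.3 after 7 days, so that all 4 of its 3-day livers lay above the 7-day livers as well. Galk1, the galactokinase, was at 36.0 to 54.1 against 80.3 to 128 eRPKM. Ccr3, the eotaxin receptor, was at 0.38, 0.485, 0.616 and 0.474 eRPKM in the controls and 2.78, 3.60, 3.71 and 9.90 in the induced livers, a log2 fold change of 2.32 ± 0.31, and was highest in liver 4.

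Genes of cell division gave many separated members, unevenly between livers. Of 90 tested genes of mitosis, kinetochore and cytokinesis, 24 lay above all controls (26.7%, beside 3.38%) and 0 below, the median log2 fold change was 1.14 and 87 were positive. Only Ska2 passed the test. Ccnb1, the mitotic cyclin B1, was at 0.323, 0.609, 2.61 and 1.0 eRPKM in the controls and 2.99, 16.2, 15 and 11 after induction (2.81 ± 0.50, adjusted p 0.037), and Cdk1, its kinase, at 0.783, 0.802, 2.11 and 0.271 against 2.80, 7.57, 13.5 and 8.57 (2.49 ± 0.43, adjusted p 0.031). Liver 1 was only just above control 3 for Ccnb1, and livers 2 to 4 were severalfold higher. Ccnb2, the second mitotic cyclin of the list, was at 1.13, 1.37, 3.66 and 1.01 against 4.49, 16.7, 18.6 and 9.23 eRPKM (2.43, adjusted p 0.049). The spindle protein Ckap2l (2.26), the checkpoint kinase Ttk (2.16) and the mitotic kinase Pbk (2.11) had the next largest log2 fold changes among the members above all controls.

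Well known proliferation markers, named after their values were seen, missed separation, with liver 1 the induced liver that overlapped the controls. Mki67 was at 1.33, 3.29, 6.72 and 2.39 eRPKM in the controls and 2.39, 22.7, 37.2 and 8.24 in the induced livers, and Top2a, the topoisomerase of dividing cells, at 1.25, 2.38, 5.14 and 2.93 against 4.38, 14.0, 25.7 and 8.19. In both genes livers 2, 3 and 4 were above every control and liver 1 was among them. Control 3 was the highest control in both, and for Top2a the only control above liver 1. Mitosis members above the highest control numbered 24 of 90 in liver 1, 85 in liver 2, 86 in liver 3 and 63 in liver 4. Over all 14244 tested genes the numbers were 3150, 3602, 3856 and 4061. The mitosis share of liver 1 was thus not far from that of all genes. Of the 24 members above in all 4, liver 3 was the highest in 19 and liver 1 the lowest in 19, an order that did not extend to the separated genes as a whole. Of the 482 genes above all controls, liver 4 was the highest most often, in 168, and liver 3 the lowest in 173, close to the 194 of liver 1.

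The machinery of DNA replication showed the same order of livers. Of 59 tested members 14 lay above all controls (23.7%) and 0 below, with a median log2 fold change of 0.73 and 57 positive. Pcna, the sliding clamp, was at 42.3, 54.2, 49.9 and 41.3 eRPKM in the controls and 84.4, 75.6, 124 and 97.7 after 3 days (1.0 ± 0.16, adjusted p 0.025). Tipin, which protects stalled forks, was at 6.58, 6.41, 3.66 and 3.20 against 12.3, 12.8, 18.9 and 13.3 eRPKM (1.48 ± 0.24, adjusted p 0.026). For these 2 genes liver 1 was about level with liver 2. Others depended more on the liver: Mcm3, of the replicative helicase, was at 2.24, 3.48, 3.77 and 2.96 against 3.91, 12.6, 29.6 and 6.30 eRPKM, and Cdt1, the licensing factor, at 1.81, 2.0, 1.99 and 2.03 against 2.12, 6.38, 16.6 and 4.29. Liver 1 barely cleared the controls for either gene, and liver 3 had the highest level.

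Nucleotide supply and the E2F axis went with replication. Of 30 tested genes of nucleotide synthesis 4 lay above all controls (13.3%) and 0 below. Rrm2, the regulated subunit of ribonucleotide reductase, was at 5.25, 4.61, 6.10 and 3.91 eRPKM in the controls and 9.35, 28.0, 80.1 and 17.4 in the induced livers (2.22, adjusted p 0.074), and liver 3 alone was above the range of the 7-day livers, 47.9 to 66.1. The others were Dut, Dtymk and Prps1, with log2 fold changes of 0.98, 0.79 and 0.63. Of 37 cyclins, CDKs, E2F factors and CDK inhibitors 6 lay above all controls (16.2%) and 0 below. E2f1, which switches on replication genes, was at 1.77, 2.07, 2.72 and 2.21 against 3.63, 6.28, 14.3 and 5.06 eRPKM (1.38, adjusted p 0.089), and the others were E2f2, its partner Tfdp1, the p107 gene Rbl1, Ccne2 and Cks1b. Ccnd1, the G1 cyclin listed among YAP targets, overlapped, at 11, 39.7, 54.2 and 13.6 against 19.5, 38.7, 89.5 and 54.4 eRPKM.

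Histone genes, which are transcribed in S phase and end in a stem-loop instead of a poly(A) tail, were added as a list after the values were seen. Of 60 tested members 18 lay above all controls (30%) and 0 below, 58 were positive with a median log2 fold change of 1.04, and 5 reached an adjusted p under 0.05, with none past the threshold for a call. Hist1h3c was at 1.04, 3.31, 5.88 and 1.62 eRPKM in the controls and 9.10, 15.6, 32.4 and 18.7 in the induced livers (2.57, adjusted p 0.030), and Hist1h4a at 20.7, 17.0, 19.4 and 24.9 against 35.0, 52.3, 74.4 and 80.2 (1.48, adjusted p 0.020). Hist1h3a was at 2.80, 2.64, 1.51 and 7.26 against 10.2, 23.0, 26.2 and 24.2 (2.50, adjusted p 0.0176), and Hist4h4 stood at 31.1, 33.9, 16.8 and 19.9 against 45.5, 70.3, 82.8 and 77.7 eRPKM. Liver 1 was the lowest induced liver in each of the 4 genes and still above all controls, and livers 2 to 4 were not in a fixed order. The histone genes are near-identical copies that share reads, and their values are uncertain gene by gene. Small nucleolar and Cajal body RNAs, the other list of transcripts without a poly(A) tail, which was likewise added later, had a median log2 fold change of 0.54 with 6 of 91 members above all controls (6.59%). Of the 91 members 72 were positive. Its score, the mean over tested members of log2(eRPKM + 0.5) minus the mean of the 4 controls, was -0.37 to 0.38 in the controls. In the induced livers the score was 0.33 to 0.87, and 3 of them lay above all controls. Its summed eRPKM was 2693 to 3944 in the controls and 5692, 3062, 3049 and 4312 in induced livers 1 to 4. The 2 livers with the suffix MF, liver 1 and liver 4, had the highest sums of the 4, and the part of this difference in the histone values was not tested.

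**Figure D2:**
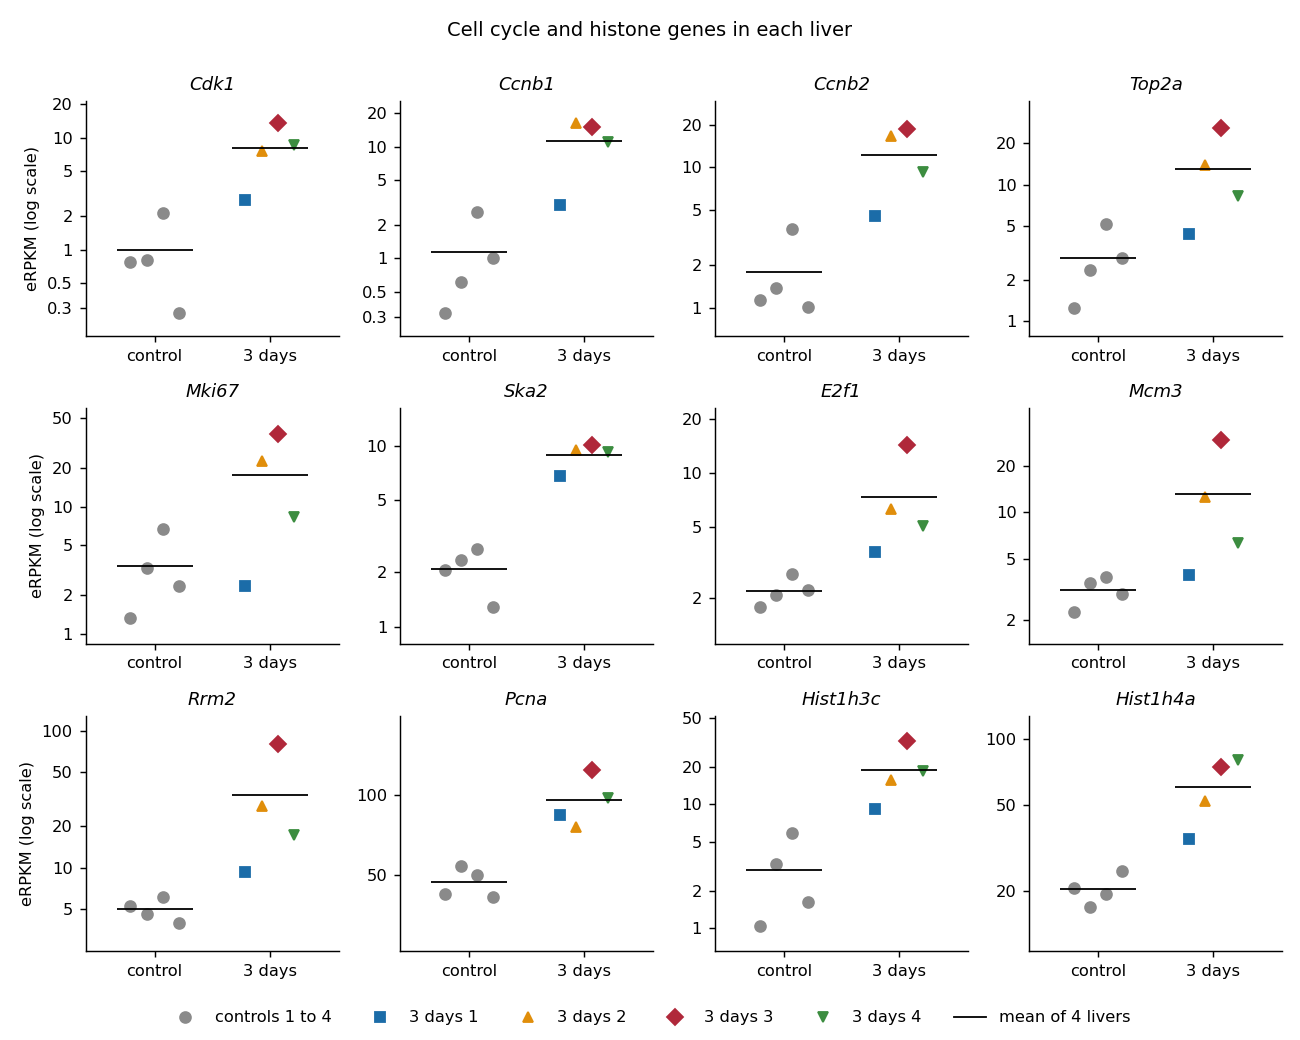
eRPKM on a log scale in the 4 controls (grey) and the 4 livers after 3 days (one symbol per liver), with the mean of 4 livers as a line, for genes of mitosis, E2F and replication and 2 histone genes. Livers 2 to 4 are above every control in each panel, whereas liver 1 lies within the controls for Top2a and Mki67.

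The promoters of Cdk1 and Ccnb1 are shown because genes of late cell cycle expression are known to carry CCAAT boxes and the cell cycle homology element TTTGAA. These motifs were chosen after the values were seen. Each line gives the 250 bases before the RefSeq start in GRCm38.p6, with TTTGAA and CCAAT, or their complements TTCAAA and ATTGG, in capitals. Neither window holds GGAATG.
Cdk1 (chr10:69352913-69353162, minus): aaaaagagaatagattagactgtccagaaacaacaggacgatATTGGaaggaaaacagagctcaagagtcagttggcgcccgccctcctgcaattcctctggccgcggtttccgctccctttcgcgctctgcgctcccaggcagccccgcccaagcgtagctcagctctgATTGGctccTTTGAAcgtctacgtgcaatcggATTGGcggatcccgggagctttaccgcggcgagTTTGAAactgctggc
Ccnb1 (chr13:100786487-100786736, minus): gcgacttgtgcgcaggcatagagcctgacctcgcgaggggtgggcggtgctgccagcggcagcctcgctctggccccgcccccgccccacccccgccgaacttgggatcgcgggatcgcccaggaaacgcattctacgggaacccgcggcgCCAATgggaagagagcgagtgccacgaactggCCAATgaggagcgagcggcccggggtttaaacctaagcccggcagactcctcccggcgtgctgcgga
In Cdk1 the letters CCAAT stand on the reverse strand at 208, 80 and 48 bases before the start and TTTGAA at 71 and 15, and in Ccnb1 CCAAT stands at 99 and 67. Among all genes with a window 18.3% hold TTTGAA and 37.5% hold CCAAT on either strand. Among the mitosis genes these shares were 40.8% (31 of 76 with a window) and 64.5% (49 of 76), and among the replication genes 14.3% (7 of 49) and 61.2% (30 of 49). Among the tested genes with a window they were 13.4% and 40.4%.

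Stress and survival genes contributed a few members each. Of 26 tested p53 targets 3 lay above all controls (11.5%) and 0 below. Phlda3, a repressor of AKT, was at 2.21, 1.92, 1.92 and 1.59 eRPKM in the controls and 3.97, 4.01, 6.83 and 7.54 in the induced livers (1.29 ± 0.23, adjusted p 0.038), and the receptor gene Eda2r and the stress cytokine gene Gdf15 had log2 fold changes of 1.62 and 1.57. Cdkn1a, the p21 inhibitor, overlapped the controls, at 1.12, 1.03, 0.909 and 2.10 against 0.657, 4.34, 4.88 and 3.57 eRPKM, with liver 1 alone below them. Of 24 genes of the Bcl2 family and apoptosis 4 lay above all controls (16.7%): the called genes Pawr and Tnfrsf12a, and the anti-apoptotic Bcl2 (2.03, 2.16, 2.40 and 1.0 eRPKM against 3.06, 3.28, 3.71 and 2.83) and Mcl1 (80.2 to 101.03 against 109.8 to 141). Of 23 heat shock proteins and chaperones 3 lay above (13%), Hspb1, Bag3 and Tcp1, with log2 fold changes of 1.25, 0.46 and 0.21.

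Most adhesion and signalling families had separated members at near the shares over all tested genes, 3.38% above and 2.25% below. Of 59 actin and contractility genes 3 lay above all controls (5.08%), Anln, Rhob and Rock2, and 1 below (1.69%), Tpm2. Of 13 tested keratins 1 lay above all controls, Krt4, and 2 below (15.4%, beside 2.25%), Krt222 and Krt80, both on 13 reads or fewer per liver. After quantile normalization 2 keratins lay above and 0 below, and with size factors 1 above and 1 below. Krt4, of stratified epithelia, was at 0, 0.331, 0 and 0.727 eRPKM in the controls and 0.853, 9.53, 8.03 and 2.22 in the induced livers (2.57, adjusted p 0.083), with livers 2 and 3 again the high ones, whereas the hepatocyte keratins Krt8 and Krt18 had log2 fold changes of 0.41 and 0.33 and overlapped. Of 25 EGF and FGF ligands and receptors 1 lay below all controls (4%), the receptor Erbb3 (60.0 to 77.5 eRPKM against 38.0 to 51.9), and 0 above. Of 34 genes of TGF-beta, BMP and iron signalling 1 lay above (2.94%), Id3 (27.7 to 52.9 against 80.2 to 119), and of 17 Notch genes 0 lay outside the controls. Omd, a matrix proteoglycan, had one of the largest differences of all genes, at 8.67, 2.01, 0.691 and 5.32 eRPKM in the controls and 46.0, 37.3, 9.18 and 16.0 in the induced livers (2.69, adjusted p 0.083), with liver 1 the highest. In each group the livers with high Ddx3y were the higher pair for Omd.

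Genes that were lower at 3 days were fewer and mostly weakly expressed. None passed the test, and Ifnk, the interferon kappa gene, was the only one at an adjusted p under 0.05, at 10.9, 7.96, 6.39 and 9.46 eRPKM in the controls and 3.55, 1.96, 3.21 and 3.21 in the induced livers (-1.40 ± 0.25, adjusted p 0.038). All 4 induced livers held about the same low level, on 6 to 10 reads beside 10 to 37 in the controls. The largest differences downwards at a mean of at least 1 eRPKM were led by Mir29b-1 (-3.66), which rests on 0 to 5 reads, and Mmd2, at 23.3, 10.5, 9.77 and 5.06 against 3.90, 0.997, 3.19 and 2.70 eRPKM (-1.90, adjusted p 0.083). D7Ertd143e (-1.6), Mir1192 (-1.56, on 2 to 19 reads), the chemokine Cxcl14 and the ephrin ligand Efna3 (both -1.47), Pdgfrl (-1.40) and Ctcfl, the CTCF paralog (-1.34), followed, and then Fbf1 (-1.15), Gcnt7 (-1.14) and Sftpa1 (-1.13). Cxcl14 was at 1.91, 2.03, 3.09 and 4.25 eRPKM in the controls, 1.6, 0.293, 0.144 and 1.16 after 3 days, and 8.49 to 32.7 after 7 days. Like Ankrd1, it was below the controls at 3 days and above them at 7 days. Among the largest differences upwards, Mir23a (2.94) rests on 0 to 2 reads. H2-Q1 (2.54) was at 5.06, 11.1, 12.8 and 5.16 against 28.8, 25.3, 90.4 and 80.4 eRPKM, with the livers of high Xist the higher pair in each group. H2-Q1 belongs to a family of near-identical class I genes that can share reads.

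Genes of adult liver functions mostly overlapped the controls at 3 days. All 14 hepatocyte markers had a negative log2 fold change, with a median of -0.34, but 0 lay outside the controls. All 14 are densely covered, and their score was -0.45 to -0.11 in the induced livers, inside the -0.65 to 0.80 of the controls. Of 21 tested genes of Wnt response and pericentral expression 2 lay below all controls (9.52%, beside 2.25% of all tested genes) and 0 above, 18 were negative and the median log2 fold change was -0.36, but 9 of the 21 are densely covered. Lgr5, the R-spondin receptor of pericentral hepatocytes, was at 4.15, 4.49, 3.36 and 2.53 eRPKM against 2.46, 1.90, 1.46 and 2.45 (-0.68, adjusted p 0.28), and the glutamate transporter Slc1a2 at 62.5 to 82.3 against 40.1 to 58.3 (-0.57). Glul and Cyp2e1, the usual pericentral markers, overlapped the controls. Of 26 amino acid transporters 3 lay below (11.5%), Slc1a2, Slc7a6 and the cystine transporter Slc7a11. Of 24 genes of gluconeogenesis and glucose handling 2 lay below (8.33%), one being the liver glycogen synthase Gys2, at 126, 94.0, 113 and 100.7 eRPKM against 52.2, 83.9, 70.5 and 40.6 (-0.85, adjusted p 0.11), with livers 1 and 4 the lowest. Other hepatocyte genes below all controls were Fads2, a fatty acid desaturase (63.0 to 98.3 against 30.7 to 59.5 eRPKM), F11, coagulation factor XI (50.3 to 84.0 against 24.3 to 36.6), and Cbs, of the transsulfuration pathway (119 to 147 against 98.3 to 108). Slc1a2, Gys2, Fads2, F11 and Cbs are densely covered, and 52 of 60 genes of urea cycle and amino acid breakdown and 52 of 57 coagulation, complement and carrier proteins are as well. The part of the read ceiling in these values was not tested.

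Lists of plasma proteins, drug metabolism and inflammation lay at or near the background. None of the apolipoproteins (22 tested), serpins (36), acute phase proteins (28), family 4 cytochromes P450 (14), interferon-stimulated genes (40) or NF-kB genes (26) lay outside the controls. Of 52 cytochromes P450 of families 1 to 3, the vitamin D 25-hydroxylase Cyp2r1 alone lay above (31.0 to 38.1 against 48.8 to 63.9 eRPKM) and 0 below. Of 42 chemokines and receptors Ccl9 and Ccr3 lay above and Cxcl14 below. Markers of other cells overlapped between the groups for the most part, with liver 4 high in some lists. Of 24 endothelial, 12 Kupffer, 16 monocyte and macrophage, 6 neutrophil and 20 stellate markers 0 lay outside the controls. The log2 fold change was positive for 20 of the endothelial markers, with a median of 0.18. Of 8 B and plasma cell markers 7 were negative, with a median of -0.53, and 0 lay outside the controls. Their score was -0.33 to 0.50 in the controls and -0.79 to -0.11 in the induced livers, 3 of them below all controls. The summed eRPKM of the endothelial markers was 337 to 591 in the controls and 402 to 689 in the induced livers, that of the Kupffer markers 329 to 690 and 406 to 842. The upper end was liver 4 in both lists, with 16 of 24 endothelial and 9 of 12 Kupffer markers above the highest control there, beside 1 to 7 and 0 in the other induced livers. Of all 14244 tested genes 4061 were above the highest control in liver 4, and 3150 to 3856 in the other induced livers. Of 12 pancreas acinar markers 2 were tested, Cela1 and Cela2a. Both were above the highest control in livers 1, 2 and 4 and below every control in liver 3. Their mean log2 difference from the control mean was 0.67, 0.87, -0.52 and 1.12 in livers 1 to 4 and -0.19 to 0.20 in the controls. Of 18 T and NK cell markers Cd3d and Cd8b1 lay below, both at low levels, and of 22 cholangiocyte and progenitor markers Tnfrsf12a lay above and Ehf below, while Sox9, Krt19 and Epcam, which define these cells, overlapped the controls. The part of these other cell types in the results above was not tested.

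**Figure D3:**
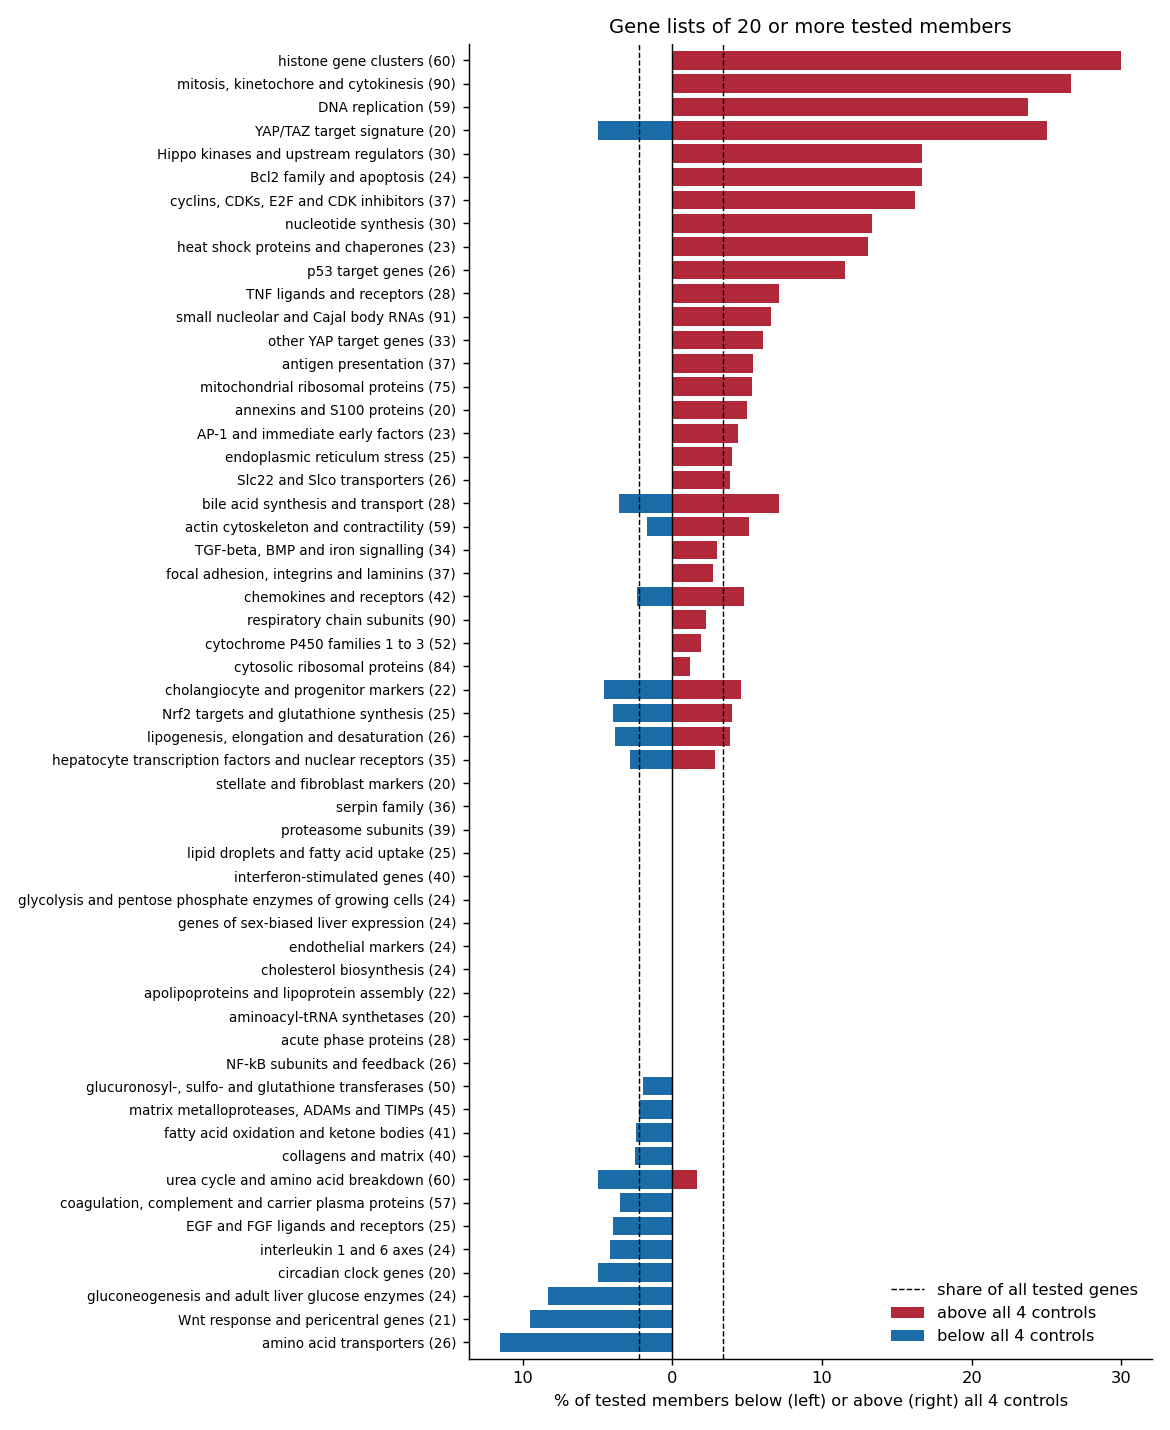
Share of the tested members of each gene list (number tested in brackets, lists of 20 or more) with all 4 induced livers above (right) or below (left) all 4 controls, in percent; the dashed lines mark the shares over all 14244 tested genes, 3.38% above and 2.25% below. Histone, mitosis, YAP signature and replication lists reach 23.7% to 30% above, and amino acid transporters reach 11.5% below.

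The 4 induced livers differed in strength, and the order depended on the gene family. A score was given to each liver and list, the mean over tested members of log2(eRPKM + 0.5) minus the mean of the 4 controls. For mitosis the controls scored -0.20, 0.08, 0.44 and -0.33 and induced livers 1 to 4 scored 0.19, 1.47, 2.07 and 0.98. For DNA replication the control scores were -0.30 to 0.18 and the induced scores 0.11, 0.90, 1.65 and 0.52. In both lists liver 3 was the strongest, then liver 2, then liver 4, and liver 1 lay inside the range of the controls. The upper end of that range was control 3 in both lists. The same order of livers 3, 2 and 4 held for cyclins and E2F factors (0.83, 0.42 and 0.28) and for nucleotide synthesis (0.59, 0.39 and 0.16), with liver 1 at 0.08 and -0.13. Histone genes gave another order, 0.43, 1.20, 1.26 and 1.59 in livers 1 to 4 against -0.33 to 0.16 in the controls, and there all 4 livers were outside the controls.

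YAP target scores lay less far from the controls than those of the cell cycle. The YAP/TAZ signature scored -0.39 to 0.27 in the controls and 0.08, 0.22, 0.51 and 0.27 in the induced livers, so that liver 3 alone stood clear of the highest control. The further targets scored -0.11 to 0.11 and 0.08, 0.32, 0.61 and 0.29, the Hippo regulators -0.26 to 0.17 and 0.11, 0.27, 0.37 and 0.17, and the p53 targets -0.14 to 0.09 and 0.08, 0.29, 0.53 and 0.34. Liver 3 had the highest score and liver 1 the lowest in each of these lists. In each of these 4 lists the lowest control was the shallow control 4. The Wnt and pericentral list scored -0.28, -0.25, -0.35 and -0.22 in induced livers 1 to 4 against -0.23 to 0.16 in the controls, so that livers 1 to 3 lay below the controls and liver 4 just inside their range.

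**Figure D4:**
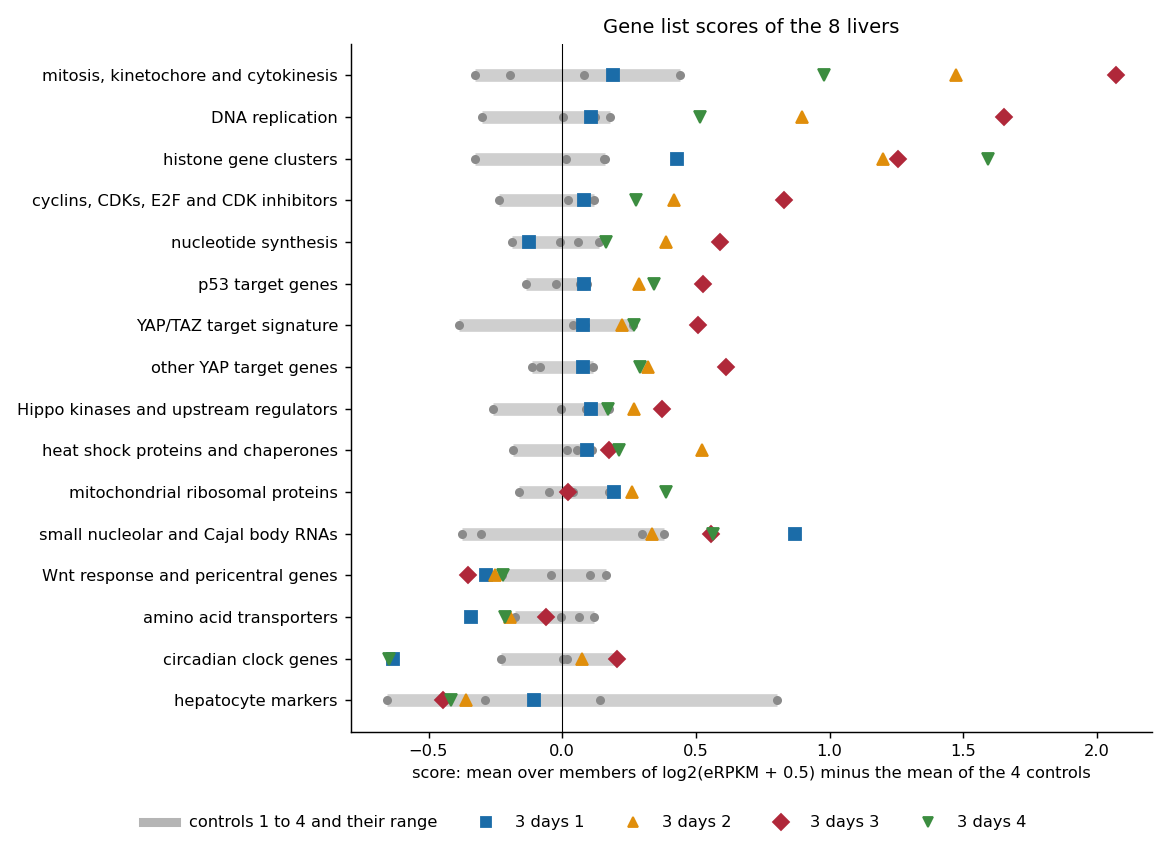
Score of each liver for 16 gene lists, the mean over tested members of log2(eRPKM + 0.5) minus the mean of the 4 controls; grey points and bars give the 4 controls and their range, symbols the 4 induced livers. Livers 2 to 4 are right of the controls for mitosis and replication while liver 1 is within them, and livers 1 and 4 are left of the controls for circadian clock genes.

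Counted over all tested genes, the order depended on the size of the difference. Above the highest control by any amount were 3150, 3602, 3856 and 4061 genes in induced livers 1 to 4, with liver 4 at the top. Above the highest control and more than 1 log2 over the control mean were 365 genes in induced liver 1, 511 in liver 2, 800 in liver 3 and 673 in liver 4. A control set against the other 3 gave 262 to 412 such genes, a range that is not directly comparable, since the highest of 3 livers is more easily exceeded than the highest of 4. Below the lowest control and more than 1 log2 under the mean were 578, 319, 209 and 422 genes in livers 1 to 4, beside 113 to 258 in controls 1 to 3 and 1113 in the shallow control 4. By these counts liver 1 had the fewest genes of the 4 above and the most below, and was also the shallowest of the induced livers. Of the 14244 tested genes, 482 were above the highest control in 4 of the 4 induced livers, 1256 in 3, 2726 in 2 and 3521 in 1.

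**Figure D5:**
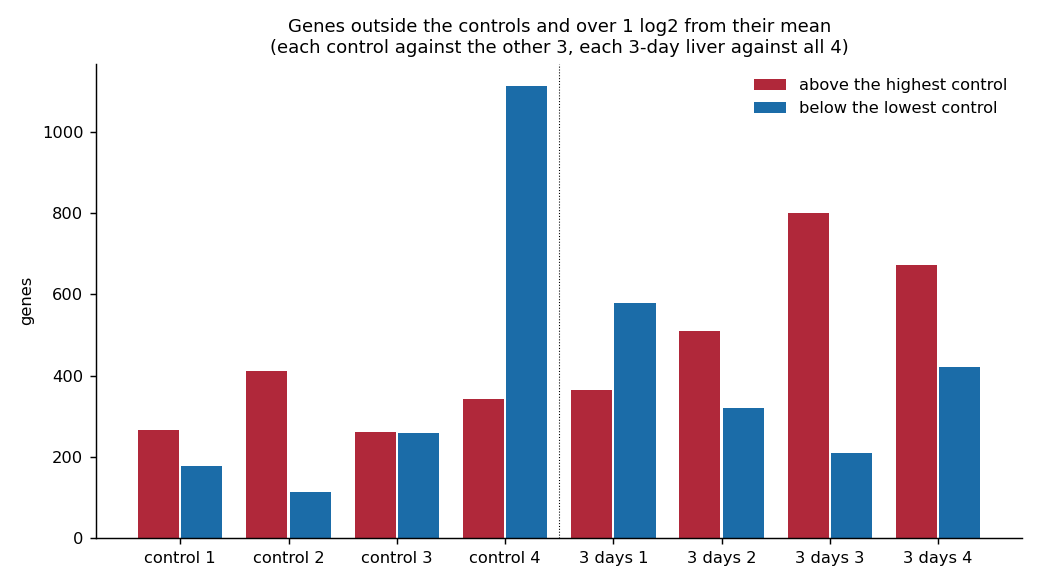
Number of tested genes per liver that lie above the highest or below the lowest control and differ by more than 1 log2 from the control mean; each control was set against the other 3 controls and each induced liver against all 4. Induced livers 3 and 4 have the most genes above, 800 and 673, and control 4, the shallowest library, has the most below, 1113.

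Livers 1 and 4, the ones with the suffix MF, also differed from livers 2 and 3 in genes of the circadian clock. The score of 20 clock genes was -0.63, 0.07, 0.20 and -0.65 in induced livers 1 to 4 and -0.23 to 0.21 in the controls. Ciart, a clock repressor with a strong daily rhythm, was at 20.3, 28.8, 16.0 and 14.6 eRPKM in the controls and at 5.02, 22.9, 21.4 and 2.82 in the induced livers, and Usp2, named after its values were seen, at 17.7, 24.3, 12.3 and 13.7 against 3.45, 20.2, 33.3 and 4.48. Clock itself went the other way, at 17.8 to 23.5 eRPKM in the controls and 52.6, 23.3, 14.3 and 44.5 in the induced livers. Livers 1 and 4 were thus outside the controls in all 3 genes, both on one side, while livers 2 and 3 were within the controls or on the other side. Nr1d1, the clock repressor REV-ERB alpha, was below all controls in all 4 livers, at 41.8, 42.6, 48.9 and 26.3 against 15.1, 19.4, 19.1 and 19.5 eRPKM (-1.08, adjusted p 0.119). The sources used here give no hour of collection. Livers 1 and 4 were also the lower pair for Cyr61, Ctgf, Amotl2, Crim1 and Ajuba, and what these livers share beyond the suffix was not tested. Without them, in a fit of livers 2 and 3 against the controls, limma called 91 genes higher and 2 lower, and 85 of 90 mitosis genes, 44 of 59 replication genes and 38 of 60 histone genes lay above all controls. In that setting 1975 of the 14244 tested genes lay above all controls, since fewer livers leave more genes separated.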

How the data were processed

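RNA was sequenced from 8 whole livers, 4 control and 4 after 3 days of induction, and 3 livers after 7 days entered the same fit. Per the labels and the study's methods, bases of low quality were masked by the authors, the pairs of reads were placed on mm9 by TopHat 2.0.8, unstranded and on annotated junctions, and featureCounts 1.4.5-p1 is named in the processing notes; the gene annotation and the handling of duplicate reads are not given in the sources used here. The deposited values are eRPKM, an RPKM that the authors scaled per library; 3 further columns hold the authors' DESeq2 comparison of 7 days with control (mean level, log2 fold change and adjusted p) and were not used. Steps in the RPKM values gave whole reads for 177553 of 177553 values above 0 (tolerance 0.1 read). Values were tested with limma 3.58.1 (R 4.3.3) as log2(eRPKM + 0.5), with trended variance, over the 14244 of 20893 genes that reached 0.5 eRPKM in 3 or more of 11 livers, and called at an adjusted p under 0.01 and a log2 fold change over 0.5 in size. The fit was tested on simulated data. A gene counted as above or below the controls where its 4 induced livers did not overlap the 4 controls. Alternatives covered pseudocount, filter, scaling, variance model, covariates, voom on the recovered reads, the replicate block and leaving out livers.

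Genes named were 12 fixed pathway genes, all called genes, the 12 largest differences in each direction among separated genes with a mean of at least 1 eRPKM, and a part of the 4 (or, in lists of over 20 tested members, 6) members with the smallest p in each of 73 lists. Genes outside this rule were named after their values were seen. The comparison, the lists and their members were chosen with earlier results of these data known, and 2 more lists and 2 motifs were added after the values were seen. Positions are from the mm9 GENCODE annotation, and promoter windows from RefSeq on GRCm38.p6. Ctgf and Kifc3 had no window in the table used.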

Additional observations from a re-analysis of the deposited data

Results flagged for a closer look

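Of 110 sets of 4 livers examined, 8 held a liver whose gap to its nearest neighbour took up more of the range of the set than Dixon's 95% limit for 4 values, and chance gives about 1 in 20. On the log2(eRPKM + 0.5) scale these were Tead4 in control 4 (ratio 0.891), Ankrd1 in control 3 (0.837), Mir23a in control 2 (1), Hist1h3a in induced liver 1 (0.863), Mir29b-1 in induced liver 4 (1), Efna3 in control 2 (0.961) and Fbf1 in control 3 (0.838). The reads on genes of induced liver 1 gave a ratio of 0.946. The values of Tead4, Ankrd1, Mir23a and Mir29b-1 rest on few reads. Hist1h3a in liver 1 was at 10.2 eRPKM beside 23.0 to 26.2 in the other induced livers, and Efna3 in control 2 at 1.87 beside 5.07 to 5.26 in the other controls.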

How the results depend on the processing

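The direction of most named genes held, while the number of calls moved with nearly every choice. The 6 higher genes of the 11-liver fit became 0 with the 8 livers alone, 0 without a variance trend, 0 in the livers with more Ddx3y than Xist, 1 with voom on the recovered reads, 1 with depth as a covariate, 3 without a filter, 10 with the suffix MF and 16 with Xist as a covariate, 12 with size factors, 91 without the MF livers and 40 at an adjusted p under 0.05. Leaving out 1 liver gave 0 to 53 higher and 0 to 2 lower genes: 53 higher without induced liver 1, 1 without induced liver 3, 3 without control 1 or 4, and 0 without induced liver 2 or 4 or control 2 or 3. The 0 lower genes became 1 in the livers with more Xist, 2 without the MF livers and 1 at an adjusted p under 0.05. With the replicate number as a block 3 genes were higher and 0 lower. The deviations of livers with the same number had correlations of 0.20, -0.22, 0.27 and -0.06. Across numbers as well, correlations were positive between livers alike in Xist and Ddx3y and negative between unlike ones. These values therefore cannot tell whether the numbers pair the samples. Over 26 alternative fits Msrb3 was called in 18, Tnfrsf12a in 14, Kifc3 in 13, Pawr in 11 and Rcan1 and Ska2 in 10 each, with a positive log2 fold change in every fit that held the gene (25 for Rcan1, which one filter removes). Genes above all controls were 2590 in the Ddx3y-high livers, 1881 in the Xist-high livers, 1975 without the MF livers and 573 to 1006 without 1 liver; fewer livers leave more genes separated. Genes below all controls were 1583, 2534, 937 and 402 to 1008 in the same order, 201 at a mean of at least 1 eRPKM and 585 after quantile normalization. Mitosis members above were 48, 63, 85 and 24 to 63, replication members 27, 30, 44 and 14 to 27, and histone members 30, 45, 38 and 18 to 36. Without the MF livers the log2 fold changes of Yap1 and Tead3 turned to 0.014 and 0.094, and that of Axl was -0.092 in the Xist-high livers and -0.0023 without control 4. The cause of these changes was not tested. Control 4, with 1251396 reads on genes, limits what can be seen of genes with few reads.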

Other observations

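Some further families had small log2 fold changes, with 0 members called, beside 52.3% positive over all tested genes. Of 75 tested mitochondrial ribosomal proteins 65 had a positive log2 fold change, with a median of 0.22, and 4 lay above all controls, Mrpl18, Mrpl19, Mrps26 and Mrps34; with quantile normalization the median was 0.094 and 2 lay above. Of 84 cytosolic ribosomal proteins 30 were positive, with a median of -0.04, and 69 are densely covered. Of 90 respiratory chain subunits 64 were positive, with a median of 0.05, and Ndufb6 and Ndufs7 lay above all controls.

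Slc22a4, a carnitine-type transporter gene, was at 4.30, 4.06, 3.57 and 3.78 eRPKM in the controls and 6.44, 16.6, 16.0 and 7.11 in induced livers 1 to 4 (log2 fold change 1.32, adjusted p 0.082), with livers 2 and 3 the high pair. Snora61 was at 16.1, 42.7, 32.5 and 12.5 against 123.3, 86.3, 153 and 89.3 eRPKM (2.23, adjusted p 0.028). These values rest on 1 to 15 reads in the controls and 20 to 36 in the induced livers, and its exon overlaps Snhg12. Psca, of the oncofetal list, was listed at 0 in all 4 induced livers and at 0.582, 0.412, 0 and 0.906 in the controls, and stood at 28.3 to 54.7 eRPKM after 7 days.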
